A study of Meleagris gallopavo with 12 samples.

Results

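Receptors for oestrogens and progesterone, and proteins named after steroid receptors, are described here from 9 of the 20460 chicken probes on the array. They were chosen because their names contain (ESR2), or spell out the receptor of a steroid hormone, while names of estrogen receptor-related, coactivator, corepressor, binding and interacting proteins were left out. Of these, 4 probes stand for 3 nuclear steroid receptors: ESR2 (oestrogen receptor beta, probe RIGG16483), ESR1 (oestrogen receptor alpha, RIGG17158) and PGR (progesterone receptor, RIGG09668 and RIGG09985, the latter described as the 3' end of its mRNA). The other 5 probes stand for 3 proteins that only carry a receptor in their names: PGRMC2, EBAG9 and a gene described as similar to the coregulator NSD1. No probe name contained glucocorticoid receptor. ESR2 gave the set its name because of its measured values, so its values between long-day photosensitive hens and each other group are given as a description, with no test.

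Steroid hormones enter the cell and bind nuclear receptors, which wait in the cytoplasm or nucleus with heat shock chaperones and, once bound, act on DNA together with coactivators and corepressors. Both oestrogen receptors answer to oestradiol but are separate genes with different distributions in the brain, and the progesterone receptor gene is itself a classical oestrogen target. In hens, oestradiol and progesterone from the ovary feed back on the hypothalamus and pituitary, and day length decides whether the ovary is active.

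Total RNA came from the premammillary nucleus, a cell group of the mediobasal hypothalamus whose neurons make dopamine and melatonin, in adult turkey hens. Short-day photosensitive (SDPS) hens lived under 6 h light and 18 h dark. Long-day photosensitive (LDPS) hens had 16 h light and 8 h dark for 10 days. Long-day photorefractory (LDPR) hens stayed on long days through a full reproductive cycle and moult, with hours not given in the sources used here. The labels name no hormone treatment, and hormone levels of these hens were not analysed here. Tissue of 6 hens was pooled for a sample, with 4 pools in a group, so the spread between single hens is hidden and p-values measure the spread between pools and arrays. Each of 6 arrays held 2 pools of different groups in 2 dyes, and each pair of groups shared 2 arrays directly.

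Median spot amplitudes ran from 92.65 to 276.5 over the 12 channels. LDPR pool 2 stood apart in its empty spots, whose 95th percentile of 62.8 was the highest: 79.3% of its chicken probes were brighter than that, against 91.6% to 96.6% elsewhere. The 5 measured markers of dopamine and melatonin neurons (TH, SLC18A2, GCH1, ASMT and OPN4) were above empty spots in all 12 channels, and so were all 7 measured general neuron markers. Because the tissue is bulk, fewer cells of a type and less RNA per cell cannot be told apart. Levels below are normalised log2 intensities of a pool and keep the brightness of that array's spot. Differences between groups are log2 fold differences fitted by limma to the ratios within arrays, so a difference need not equal the gap between mean levels. Turkey RNA bound to chicken probes, and levels of different probes are not compared.

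ESR2 was lowest in the LDPS hens. In the SDPS pools 1 to 4 its level was 7.40, 6.76, 7.23 and 7.41. In the LDPS pools it was 6.37, 5.97, 5.88 and 6.32, and in the LDPR pools 6.80, 7.0, 7.06 and 6.46. Every LDPS pool lay below every pool of both other groups, while the SDPS and LDPR pools overlapped. The highest LDPS pool (6.37) and the lowest LDPR pool (6.46) were close. The means were 7.20 ± 0.31 in SDPS, 6.83 ± 0.27 in LDPR and 6.14 ± 0.24 in LDPS (SD, n = 4 pools each). The probe was faint but measured throughout: its amplitudes ran from 45.06 to 236, all 12 channels were above the empty spots, and the spot confidence score was 0.60 to 0.71.

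**Figure D1:**
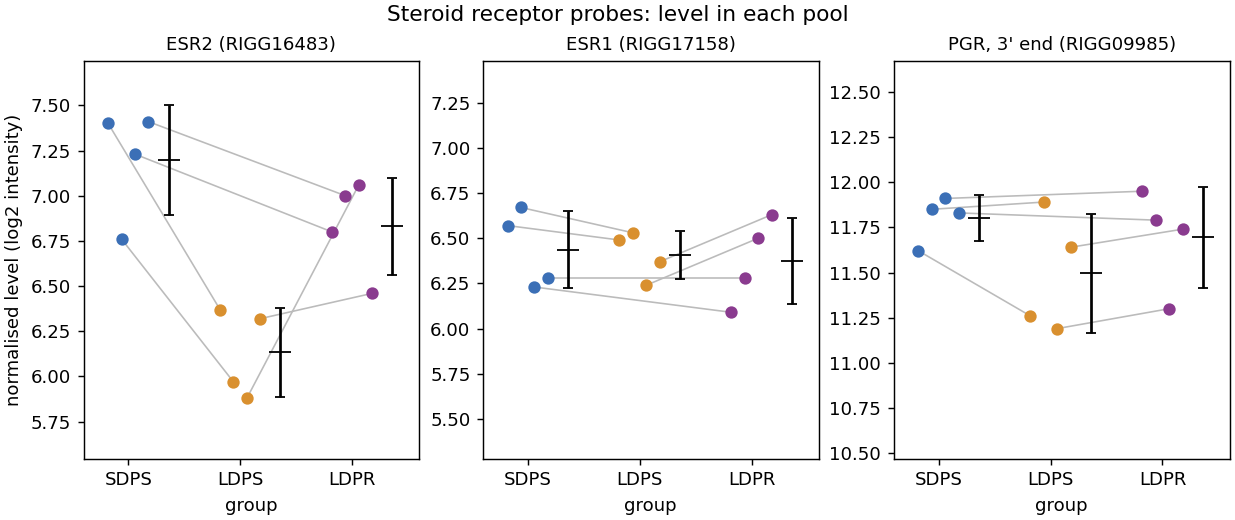
Normalised level (log2 intensity, vertical axis) of 3 steroid receptor probes in each pool, by group on the horizontal axis. Points are the 4 pools of a group, grey lines join pools that shared an array, and black bars are the mean and SD. All panels span the same number of log2 units. The LDPS pools of ESR2, 5.88 to 6.37, lie below the SDPS and LDPR pools, while the groups of ESR1 and the PGR 3' end overlap.

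After 10 long days ESR2 was 1.95-fold lower than on short days, a fitted log2 difference of -0.97 (SE 0.16). The arrays that held both groups gave -1.04 for LDPS pool 1 against SDPS pool 1 and -0.79 for LDPS pool 2 against SDPS pool 2. With each array left out in turn the difference lay between -1.17 and -0.82. Both direct arrays and all fits with an array left out put LDPS below SDPS. ESR2 was chosen for these values, so nothing is read from that sign. When 50 was added to every spot amplitude, the difference was -0.64. Of the 16748 probes measured in all 12 pools, 0.305% had every LDPS pool below every SDPS pool, and nothing is read from that share for a gene chosen by these values.

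In photorefractory hens ESR2 was 1.52-fold higher than in LDPS hens (log2 difference 0.60, SE 0.16). The direct arrays differed: LDPR pool 3 stood 1.18 above LDPS pool 3, while LDPR pool 4 stood 0.13 above LDPS pool 4. The array of LDPS pool 3 and LDPR pool 3 is also the one quantified on a different date from the rest. Without it the difference was 0.30 (SE 0.16), so the size of this difference rests to a large part on 1 array. Adding 50 to the amplitudes gave 0.36. Pools lay wholly higher in LDPR for 0.49% of the 16748 probes, a share from which nothing is read here. The sign of ESR2 was positive on both arrays and in each of the 16 alternative fits. ESR2 was chosen for these values and the fits reuse the same arrays, so nothing is read from the sign.

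The comparison of photorefractory with short-day hens is not free of the choice of ESR2. It shares all its pools with the comparisons above, and its fitted difference is the sum of theirs. ESR2 was 1.29-fold lower in LDPR (log2 difference -0.37, SE 0.16, 95% interval -0.72 to -0.01). Both direct arrays were negative, at -0.43 for LDPR pool 1 against SDPS pool 3 and -0.41 for LDPR pool 2 against SDPS pool 4. The unadjusted p was 0.0459 and limma's adjusted p over all tested probes was 0.528, so the difference did not pass the test. Since the choice of ESR2 bears on this difference, nothing is read from its sign, its interval or the unadjusted p. With an array left out the difference ranged from -0.52 to -0.24. The smallest size, -0.24 (SE 0.21), came when the array comparing LDPR pool 1 with SDPS pool 3 was dropped, and dropping that of LDPR pool 2 gave -0.42. At an unadjusted p under 0.05, 5.89% of all probes were lower in LDPR. The order of the group levels was therefore LDPS below LDPR below SDPS, and the upper neighbours, LDPR and SDPS, were not separated.

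**Figure D2:**
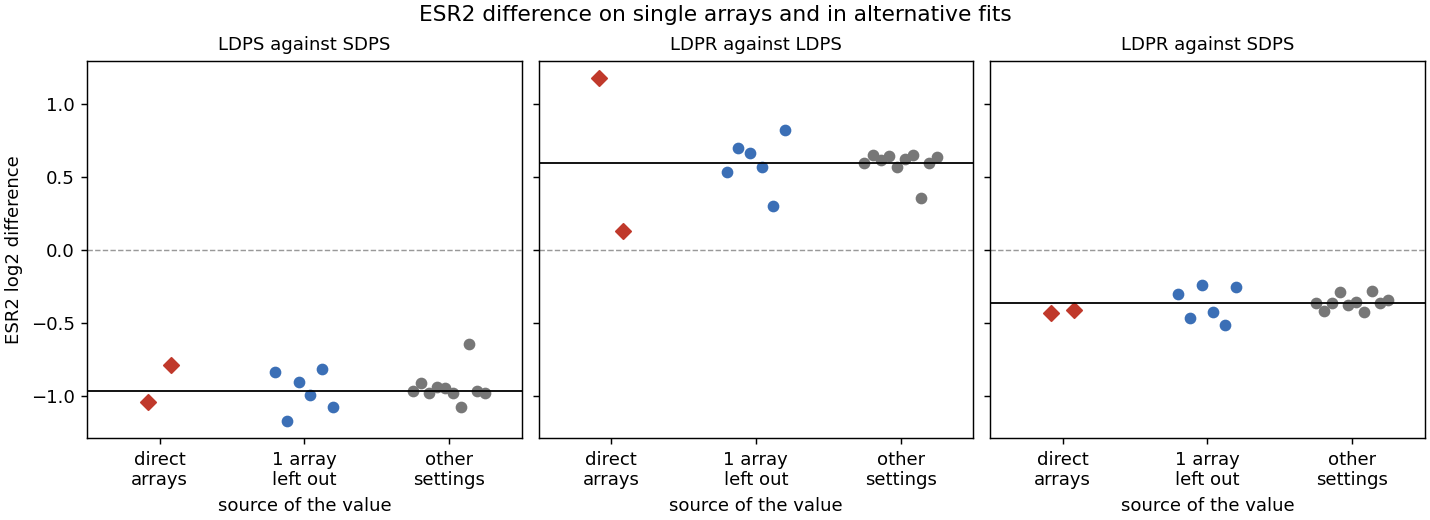
Log2 difference of ESR2 (vertical axis) in the 3 comparisons, by source of the value. Red diamonds are the 2 arrays that held both groups, blue points the fits with 1 array left out, grey points the 10 other alternative fits, and the black line is the reported fit. The LDPR against LDPS panel shows the spread of its direct arrays, 1.18 and 0.13, and the lowest fit of 0.30 without the array of LDPS pool 3 and LDPR pool 3.

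Other signals of the tissue also differed between these groups. The 3 measured haemoglobin genes (HBG2, HBA1 and HBZ), which mark blood in the sample, had a mean level of 10.11 to 10.29 in SDPS, 10.30 to 10.98 in LDPS and 9.82 to 10.08 in LDPR. Blood genes were thus highest in the group where ESR2 was lowest. Of 9 measured astrocyte and tanycyte genes, 6 had negative differences in LDPS against SDPS, with a median of -0.25, and 5 had positive ones in LDPR against LDPS, with a median of 0.08. The range of their mean level over pools was 9.93 to 10.32 in SDPS, 9.67 to 10.24 in LDPS and 9.71 to 10.16 in LDPR. Choroid plexus and ependyma genes (3 measured) ranged from 7.48 to 8.58, 7.15 to 7.91 and 7.31 to 8.67 in the same order of groups. Their differences were uneven. TTR had -0.759 in LDPS against SDPS, 2.334 in LDPR against LDPS and 1.575 in LDPR against SDPS. In that order FOLR1 had -0.034, 0.065 and 0.031, and TEKT1 -0.024, 0.271 and 0.247. Every gene on these 3 lists was above empty spots in all channels.

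Neuropeptide genes of neighbouring hypothalamic neurons (6 measured, all above empty spots throughout) had mean levels of 9.19 to 9.53 in SDPS, 8.83 to 9.29 in LDPS and 9.08 to 9.46 in LDPR. Among them NPVF, the precursor of gonadotropin-inhibitory hormone, had -0.74 in LDPS against SDPS and 1.09 in LDPR against LDPS (adjusted p = 1 and 0.148). Its signs were those of ESR2. Of the 6 genes, 4 were negative and 2 positive in LDPS against SDPS, with a median of -0.06. In LDPR against LDPS 5 were positive and 1 negative, with a median of 0.11. VIP went the other way, with 0.15 and -0.33. Signs opposite to ESR2 were seen for ITGB2, a leukocyte integrin, with 0.60 and -0.76 (adjusted p = 1 and 0.151). They were also seen for FSHB, a pituitary hormone subunit, with 0.50 and -0.73 (adjusted p = 1 and 0.146). Leukocyte and microglia genes (5 measured, 4 above empty spots throughout) had mean levels of 7.39 to 7.53, 7.41 to 7.69 and 7.17 to 7.41 in SDPS, LDPS and LDPR. In LDPS against SDPS 2 of these genes were positive and 3 negative, with a median of -0.04. Pituitary genes (4 measured, 2 above empty spots throughout) had 7.99 to 8.45, 8.07 to 8.39 and 7.71 to 8.05. Of these, 1 was positive and 3 negative in LDPS against SDPS, with a median of -0.01. In LDPS against SDPS, ITGB2 and FSHB thus do not stand for their lists. In LDPR against LDPS 3 of 5 leukocyte and microglia genes were negative, with a median of -0.05. For the pituitary list 3 of 4 were negative there, with a median of -0.15, so FSHB had the sign of most of its list. The 5 dopamine and melatonin markers had 7.70 to 8.11, 8.00 to 8.18 and 7.81 to 8.04, with 4 of 5 differences positive in LDPS against SDPS and a median of 0.15. Medians in LDPS against SDPS and in LDPR against LDPS were 0.09 and -0.36 for 3 oligodendrocyte genes. They were -0.02 and -0.01 for the 7 neuron genes, and 0.03 and -0.11 for 4 endothelial and mural cell genes. None of the genes on these marker lists passed the adjusted test in any comparison, and their part in the ESR2 values was not tested.

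The authors' deposited table, normalised by them in a way not given in the sources used here, gave ESR2 a mean of 7.19 ± 0.31 in SDPS, 6.08 ± 0.18 in LDPS and 6.85 ± 0.43 in LDPR (SD, n = 4). In the authors' deposited table the LDPR pools ran from 6.26 to 7.23 and the LDPS pools from 5.92 to 6.30, so these groups overlapped narrowly there. A fit to the authors' deposited table gave -0.98, 0.64 and -0.34 for LDPS against SDPS, LDPR against LDPS and LDPR against SDPS.

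ESR1, the other oestrogen receptor gene, showed no such gap. Its levels in pools 1 to 4 were 6.57, 6.67, 6.23 and 6.28 in SDPS, 6.49, 6.53, 6.24 and 6.37 in LDPS, and 6.09, 6.28, 6.50 and 6.63 in LDPR. The groups overlapped over most of their range, and the means were 6.44 ± 0.22, 6.41 ± 0.13 and 6.38 ± 0.24 (SD, n = 4). The ESR1 probe was faint too, with amplitudes of 56.93 to 152.5, all above the empty spots. Its spot confidence score was 0.37 to 0.68, against 0.60 to 0.71 for ESR2. The authors' deposited table holds ESR1 values for only 3 SDPS, 3 LDPS and 2 LDPR pools, while all pools were used here. ESR1 differed by -0.18 between LDPS and SDPS (95% interval -0.41 to 0.04, adjusted p = 1). It differed by 0.19 between LDPR and LDPS (-0.04 to 0.41, adjusted p = 0.432), with 0.26 on each direct array, and by 0.01 between LDPR and SDPS (-0.22 to 0.23, adjusted p = 0.985). ESR1 thus did not pass the test in any comparison. Whether ESR1 and ESR2 changed by different amounts was not tested. The fitted LDPR against LDPS difference and the gap between mean levels have opposite signs, since the levels carry the brightness of each array.

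The progesterone receptor was read mainly through RIGG09985, a bright probe with amplitudes of 1508 to 4813. It is tied to PGR only by its description as the 3' end of that mRNA, and whether it measures another transcript was not tested. Its levels were 11.62, 11.85, 11.91 and 11.83 in SDPS, 11.26, 11.89, 11.19 and 11.64 in LDPS, and 11.95, 11.79, 11.30 and 11.74 in LDPR. LDPS pools 1 and 3 and LDPR pool 3 were the lowest, and the groups overlapped. The differences were -0.14 (-0.38 to 0.09, adjusted p = 1), 0.12 (-0.11 to 0.36, adjusted p = 0.619) and -0.02 (-0.25 to 0.22, adjusted p = 0.964) for LDPS against SDPS, LDPR against LDPS and LDPR against SDPS. For LDPS against SDPS the direct arrays gave -0.36 and 0.04, so 1 array carried most of that value. The probe named PGR itself, RIGG09668, was above empty spots in 5 of 12 channels and was kept on 1 array, where LDPS pool 1 and SDPS pool 1 differed by 0.05. It was not tested.

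Members that only share a name with the receptors did not pass the test in any comparison. PGRMC2, a haem-binding membrane protein of the family first described as a membrane component of progesterone binding, differed by -0.16, 0.16 and 0.01 in the same order of comparisons (adjusted p = 1, 0.483 and 0.989). Its levels ranged from 8.25 to 9.06 in SDPS, 8.05 to 8.99 in LDPS and 8.14 to 8.78 in LDPR, and the mean of LDPR was below that of LDPS although the fitted difference was positive. EBAG9, an antigen gene first described as oestrogen-induced in human cells, differed by 0.09, -0.08 and 0.00 (adjusted p = 1, 0.796 and 0.995). Its levels spread widely inside each group, from 8.49 to 10.02 in SDPS, 9.01 to 9.96 in LDPS and 8.41 to 9.78 in LDPR. The 3 probes of the NSD1-like gene, named for a histone methyltransferase that binds nuclear receptors, gave 0.06, -0.04 and 0.06 for LDPS against SDPS. They gave 0.04, -0.10 and 0.04 for LDPR against LDPS, and 0.10, -0.14 and 0.10 for LDPR against SDPS. RIGG07929 was thus on the other side of zero from RIGG03641 and RIGG11407 in each comparison, with all 3 close to zero. RIGG03641 was kept on 5 arrays, so its fit lacks LDPR pool 2 and SDPS pool 4.

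**Figure D3:**
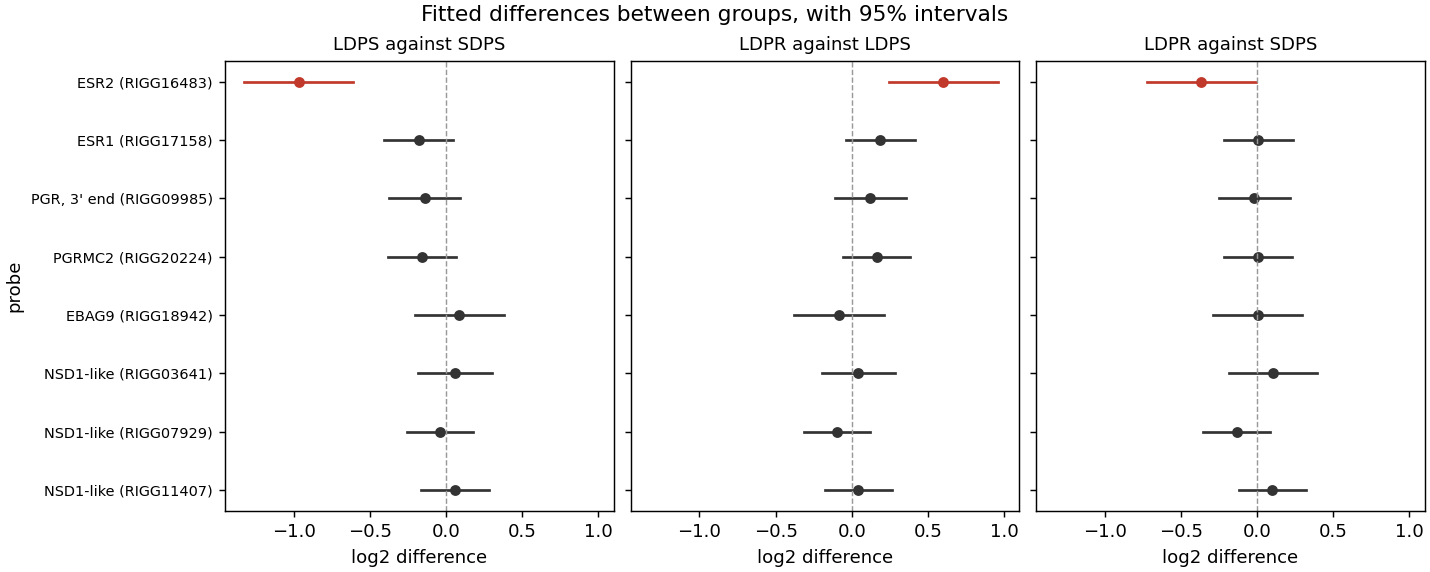
Fitted log2 difference (horizontal axis) with its 95% interval for the 8 tested probes, in the 3 comparisons. ESR2 is in red, and its intervals are a description, since the values it was chosen for enter all 3 comparisons. The other 7 probes lie between -0.18 and 0.19, and each of their intervals spans zero.

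Of the 8 tested members, none of the 7 besides ESR2 passed the adjusted test in any comparison. For LDPS against SDPS 0% of the 18012 tested probes passed. A fit of separate channels passed 5 probes there, and 26 with the pool number as a replicate block, with none of the 6 members besides ESR2 that it fitted. For LDPR against LDPS 0.0167% passed, which is 3 probes, and for LDPR against SDPS 0%. At an unadjusted p under 0.05 the 7 members had 0 probes in each comparison, against 4.33%, 13.9% and 9.37% of all probes. The median difference of these 7 was -0.04, 0.04 and 0.01, beside -0.01, -0.01 and -0.02 over all tested probes. Against these background shares, a count of 0 among 7 probes is not a result about the members.

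By level, which keeps the brightness of each array's spot, the other members did not follow ESR2 closely over the 12 pools. Pearson's r with ESR2 was -0.11 for ESR1, 0.33 for the PGR 3' end, -0.21 for PGRMC2 and -0.61 for EBAG9. For the NSD1-like probes RIGG07929 and RIGG11407 it was -0.07 and -0.09. Pools on the same array share a spot's brightness, so these are descriptions and not 12 independent points. Correlations of the ratios within arrays were not computed for these members, so whether their ratios followed ESR2 cannot be read from these r values. PGRMC2 gave direct ratios of -0.1 and -0.07 for LDPS against SDPS and 0.21 and 0.26 for LDPR against LDPS. For LDPR against SDPS it gave -0.02 and -0.11, so each had the sign of ESR2. ESR1 gave -0.07 and -0.15, 0.26 and 0.26, and -0.13 and 0 in that order, so none had the sign opposite to ESR2. The PGR 3' end, EBAG9 and the NSD1-like probes did not have the sign of ESR2 on every array.

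Among 4964 named genes measured in all pools, 5 had the levels most like those of ESR2 over the 12 pools. They were TSPAN18 (r = 0.82), DACH2 (0.75), C7ORF16 (0.75), GAL (0.74) and WDR61 (0.74). These levels keep each array's spot brightness. For the ratios within the 6 arrays r was 0.69, 0.68, 0.80, 0.83 and 0.80 in that order, so the ranking depends on the measure. TSPAN18 encodes a tetraspanin membrane protein and DACH2 a transcriptional cofactor of the dachshund family. TSPAN18 had means of 7.47, 7.26 and 7.46 in SDPS, LDPS and LDPR, a far narrower swing than ESR2. DACH2 had 7.38, 7.03 and 7.47, and C7ORF16 9.25, 8.75 and 9.29, both lowest in LDPS. WDR61, a WD-repeat protein of the complex that travels with RNA polymerase, had 9.67, 9.32 and 9.42. All but WDR61 thus returned in LDPR to near the SDPS mean.

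The 3 genes whose level ran most against ESR2 were CRK (r = -0.87), ROBO2 (-0.79) and MCM5 (-0.75). CRK, an adaptor protein of tyrosine kinase signalling, had means of 11.87 in SDPS, 12.23 in LDPS and 12.06 in LDPR. ROBO2, an axon guidance receptor, had 8.24, 8.52 and 8.37. MCM5, part of the DNA replication helicase, had 7.32, 7.51 and 7.47. None of these 8 genes except GAL passed the adjusted test in any comparison, and they were picked here for their likeness to ESR2.

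Genes that make, carry or answer to steroids were read from 7 lists, of which 69 genes were tested. The lists were chosen with earlier results of these data known, so a member that passed is not a result about its list. GAL, the neuropeptide galanin and an oestrogen-responsive gene in mammals, was the 1 that passed, in LDPR against LDPS, where 0.0167% of tested probes did. Its levels were 10.19, 10.56, 10.03 and 10.13 in SDPS, 9.37, 9.43, 8.52 and 9.27 in LDPS, and 10.12, 10.29, 10.03 and 10.24 in LDPR. As with ESR2, every LDPS pool was below every other pool. Of the 16748 probes measured in all pools, 0.305% lay wholly lower in LDPS than in SDPS. Wholly higher in LDPR than in LDPS were 0.49%. GAL is also among the genes picked above for likeness to ESR2 over these pools, so nothing is read from the shared pattern. GAL rose by 1.19 (SE 0.11, adjusted p = 0.0129) from LDPS to LDPR. It passed in 9 of 16 alternative fits, with differences of 1.07 to 1.26 and adjusted p from 3.98e-05 to 0.998. With the array of LDPS pool 3 and LDPR pool 3 left out the difference was 1.07 with an adjusted p of 0.695. For LDPS against SDPS GAL gave -1.02 (adjusted p = 0.0832) and for LDPR against SDPS 0.17 (adjusted p = 0.653). At an unadjusted p under 0.05 the listed genes numbered 3, 12 and 7 of 69 in the 3 comparisons. These shares of 4.35%, 17.4% and 10.1% were near the 4.33%, 13.9% and 9.37% of all tested probes.

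The other 10 measured oestrogen-responsive genes did not pass. PRLR, the prolactin receptor, had -0.24 in LDPS against SDPS and 0.24 in LDPR against LDPS (adjusted p = 1 and 0.322). SCUBE2, a secreted protein, had -0.26 in LDPR against LDPS and -0.18 in LDPR against SDPS (adjusted p = 0.368 and 0.665). PRL, the hormone prolactin, had -0.19 in LDPR against SDPS. The median over all 11 was -0.01, -0.02 and -0.06, so the list as a whole sat close to the array's own medians.

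Among 10 measured genes of steroid synthesis and metabolism, CYP19A1, the aromatase that turns androgens into oestrogens, had -0.07 in LDPS against SDPS (adjusted p = 1). It had -0.26 in LDPR against LDPS and -0.33 in LDPR against SDPS (adjusted p = 0.366 and 0.458). CYP7B1, a hydroxylase of neurosteroids and oxysterols, had 0.00, -0.34 and -0.33 (adjusted p = 1, 0.301 and 0.494). AKR1D1, the steroid 5-beta-reductase, had 0.24 in LDPS against SDPS and -0.27 in LDPR against LDPS (adjusted p = 1 and 0.322). STARD4, a sterol carrier, had -0.22 and 0.26 in those comparisons (adjusted p = 1 and 0.506). These are among the larger values of their list, and none passed.

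Receptor coregulators (8 measured) had a median of -0.05, 0.17 and 0.07, and in LDPR against LDPS 7 of 8 were positive. DDX5, an RNA helicase that serves as a receptor coactivator, had 0.45 in that comparison and 0.38 against SDPS (adjusted p = 0.257 and 0.507). NCOA7, an oestrogen receptor coactivator, had -0.22 in LDPS against SDPS and 0.29 in LDPR against LDPS (adjusted p = 1 and 0.252). NCOA2, a steroid receptor coactivator, was the negative one with -0.36 (adjusted p = 0.334). In the chaperone list (11 measured) the medians were 0.00, 0.13 and 0.12. HSPA4, a heat shock protein of the chaperone cycle, had 0.27 and 0.32 in the 2 LDPR comparisons (adjusted p = 0.294 and 0.441). DNAJA1, a co-chaperone of the same cycle, had 0.28 and 0.37 (adjusted p = 0.274 and 0.41).

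Other nuclear receptors (20 measured) had medians of -0.01, 0.01 and 0.02. NR3C2, the mineralocorticoid receptor, had -0.05, 0.02 and -0.04 (adjusted p = 1, 0.958 and 0.926). The largest values were those of NR2E1, a receptor with no known ligand, at 0.41 in LDPR against LDPS (adjusted p = 0.273), and of NR5A2, at -0.30 in LDPR against SDPS (adjusted p = 0.553). RORB, a retinoid-related orphan receptor, had 0.25 in LDPS against SDPS (adjusted p = 1). On the list of membrane steroid receptors 2 genes were measured. PGRMC2, given above, only carries a receptor in its name. PAQR8, a membrane progestin receptor, had -0.12, -0.03 and -0.15 (adjusted p = 1, 0.928 and 0.707).

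Glucocorticoid-responsive genes were also read, since no probe name contained the glucocorticoid receptor. Their medians over 8 measured genes were -0.05, -0.05 and -0.09. DUSP1, a phosphatase that glucocorticoids and neuronal activity both raise, had 0.14, -0.40 and -0.26 (adjusted p = 1, 0.194 and 0.508). GLUL, the glutamine synthetase that astrocytes also express, had -0.31 in LDPR against SDPS (adjusted p = 0.551). This is the brighter of its 2 tested probes, and the other is not given here. FKBP5, a co-chaperone and a classical glucocorticoid target that is also on the chaperone list, had -0.08, -0.03 and -0.11 (adjusted p = 1, 0.916 and 0.754).

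**Figure D4:**
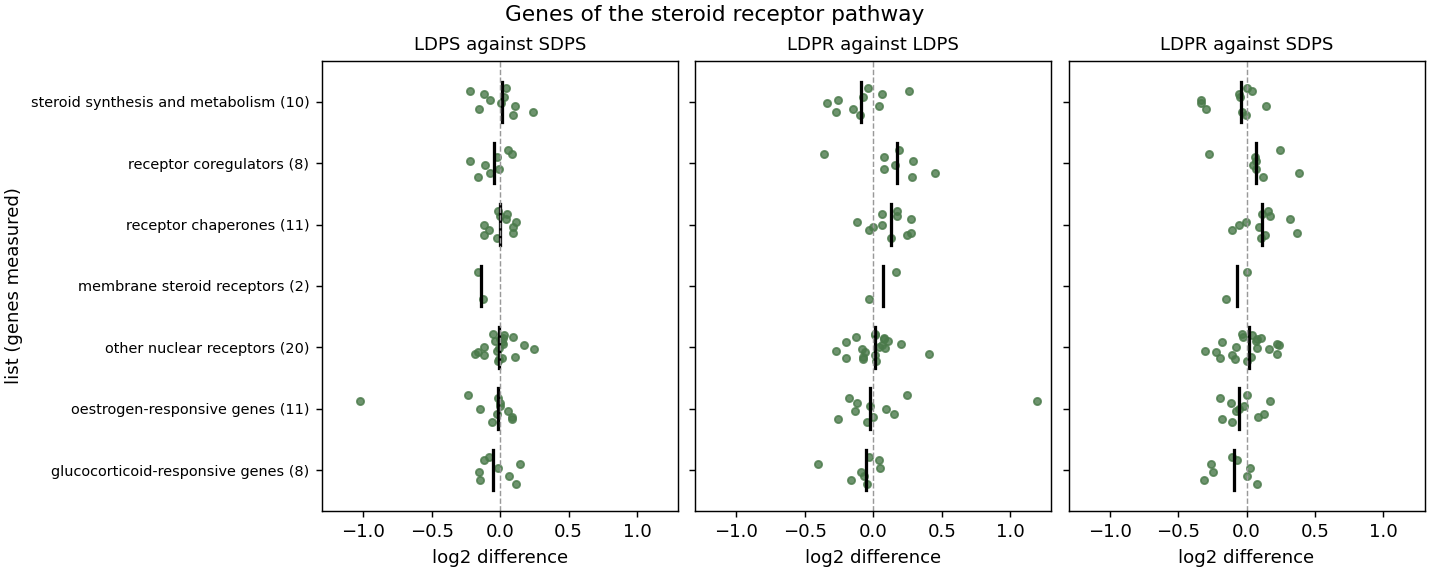
Log2 difference (horizontal axis) of each measured gene on the 7 lists, in the 3 comparisons. Points are genes, black bars the list median, and the count of measured genes stands after each list's name. GAL, at -1.02 and 1.19, lies apart from the other genes.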

How the data were processed

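Per the file headers, the authors quantified images at 532 and 635 nm in BlueFuse for Microarrays 3.6, build 7145. Each channel of a spot has 1 deposited intensity, its amplitude. The deposited confidence score and presence fraction (P ON) grade each spot, and a score under 0.1 made it missing here. The authors' deposited table holds log2 intensities of 20478 probes, and its ratios correlated with the scanner ratios at 0.931 to 0.994, which settles its direction. No genome build is named in the files, and probe sequences were not used here.

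Within-array log2 ratios were loess-normalised (span 0.3, 4 iterations) and fitted in limma 3.58.1 (R 4.3.3) with the 3 groups and a dye intercept, for 18012 probes kept on at least 5 of 6 arrays. Tests were moderated and two-sided, with Benjamini-Hochberg adjustment over all tested probes and a threshold of 0.05. The fit was run on simulated data with known changes and independent noise, as a check of the code. Nothing about the differences reported here is read from that run. All 9 members described were named, with the 5 genes most like and the 3 least like ESR2, and from each list up to 3 genes with the largest differences in a comparison. A gene that the selection also found is not reported here. The members and lists were chosen with earlier results of these data known. Where a listed gene had several tested probes, the brightest was read. Gene symbols follow the array's design, so some are old. The levels of same-numbered SDPS and LDPS pools deviated together from their group means (r = 0.653, 0.624, 0.267 and 0.249, the former 2 on shared arrays). Shared arrays enter the group means, so the array layout also moves r between pools on different arrays. Whether the labels' numbers pair the groups therefore cannot be told from these r values. The pairs with LDPR had r = 0.337 and 0.721 on shared arrays, and ran from -0.44 to -0.066 on different arrays. The reported fit has no term for the pool number. The alternative with a replicate block used the number for all 3 groups. Alternatives changed the dye term, arrays, model, normalisation, offset, spot filter and source table, and left out each array.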

Additional observations from a re-analysis of the deposited data

Results flagged for a closer look

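Of 22 groups of 4 pools tested, 2 held a pool far from the other 3 by Dixon's criterion, and about 1 in 20 groups would by chance. Both were NSD1-like probes. On RIGG07929, LDPS pool 4 had a level of 8.41, with the next LDPS pool at 7.51. LDPR pool 4, on the same array, was the highest of its group at 8.24, and their direct ratio was -0.17. On RIGG11407, SDPS pool 3 had a level of 7.47, with the next SDPS pool at 8.07. LDPR pool 1, on the same array, was the lowest of its group at 7.61, and their direct ratio was 0.14. Both pools of each array thus shared the shift, as levels keep the brightness of that array's spot. No pool of ESR2, ESR1 or the PGR 3' end stood apart in this way.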

How the results depend on the processing

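The 6 arrays limit the precision. ESR2 kept its sign in all 3 comparisons in each of 16 alternatives. These reuse the same 6 arrays, and ESR2 was chosen for its LDPS values, so nothing is read from the kept sign. An offset of 50 added to both channels gave -0.64 for LDPS against SDPS, 0.36 for LDPR against LDPS and -0.28 for LDPR against SDPS, as adding a constant shrinks the ratios of faint spots. With each array left out, ESR2 ranged from -1.17 to -0.82, 0.30 to 0.83 and -0.52 to -0.24 for LDPS against SDPS, LDPR against LDPS and LDPR against SDPS. Of the 7 tested members besides ESR2, none passed under an alternative in which it was fitted. ESR1 lacked a fit to the authors' table, and RIGG03641 lacked both separate-channel fits and, for LDPR against SDPS, the fit of direct arrays.

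The count of all probes that passed moved more. For LDPS against SDPS it was 0 as reported (780 at an unadjusted p under 0.05), 5 with separate channels, 26 with separate channels and a replicate block, and 1 each with print-tip loess, scaling between arrays, the offset and the authors' table. For LDPR against LDPS it was 3 as reported, and 0 with all spots kept, with direct arrays only and without a dye term. It was 16 with print-tip loess, 14 with scaling, 560 with separate channels and 1042 with the replicate block, and 0 to 6 with an array left out. For LDPR against SDPS it was 0 as reported (1687 unadjusted), 50 with separate channels, 13 with the replicate block, 1 with scaling and 0 to 4 with an array left out. The cause was not tested. The replicate block changed no call among the 6 members besides ESR2 that it fitted, and gave ESR2 -0.94, 0.65 and -0.29.

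Members near zero changed sign. For LDPR against SDPS, ESR1 was -0.064 with direct arrays, -0.021 with scaling, and -0.031 to 0.095 with an array left out. The PGR 3' end was 0.002 with direct arrays and -0.092 to 0.037 with an array left out. PGRMC2 was -0.065 with direct arrays, -0.015 with separate channels, and -0.027 to 0.081 with an array left out. EBAG9 was -0.165 with direct arrays, -0.007 with median centring and -0.106 to 0.161 with an array left out. For LDPR against LDPS, EBAG9 was 0.086 with direct arrays, 0.01 with the replicate block and -0.258 to 0.027 with an array left out, and for LDPS against SDPS -0.132 to 0.175 with an array left out. RIGG03641 was -0.066, -0.088 and -0.155 in the 3 comparisons with all spots kept. RIGG07929 was 0.035 for LDPS against SDPS and 0.022 for LDPR against SDPS with the replicate block. RIGG11407 was -0.019 to 0.097 and -0.034 to 0.082 with an array left out, for LDPS against SDPS and LDPR against LDPS.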
